A study of Mus musculus with 6 samples.

Results

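The genes described here encode the 5 NF-kB subunits (Nfkb1, Nfkb2, Rel, Rela and Relb) and 5 inhibitors that act in feedback on the pathway (Nfkbia, Nfkbie, Nfkbiz, Tnfaip3 and Tnip1). They were taken by symbol from a table of read counts for 23491 genes, and all 10 had a row and passed the filter on low counts. The libraries came from microglia of the cerebellum of Fmr1 knock out mice, a model of fragile X syndrome. In one group, 3 libraries, the mice had received poly(I:C), a synthetic double-stranded RNA that mimics viral infection, by intraperitoneal injection. In the other, 3 libraries, they had received saline, which the titles call sham. Every mouse of both groups carried the Fmr1 knock out, so no value here speaks to the genotype. Dose, time after injection, age and sex of the mice, and whether a library was 1 animal or a pool, are not stated in the labels. Cells were enriched on magnetic beads against CD11b, which microglia share with neutrophils, monocytes and other macrophages.

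NF-kB is a family of transcription factors that work as dimers and drive inflammatory and survival genes. In resting cells IkB proteins hold most dimers in the cytoplasm. Double-stranded RNA, Toll-like receptors and cytokines such as TNF activate the IkB kinase complex, IkB is degraded, and the dimers enter the nucleus. Several of the genes they switch on encode their own brakes, IkB proteins and the ubiquitin-editing protein encoded by Tnfaip3, so that transcripts of inhibitors are widely read as a sign of recent NF-kB activity. Microglia, the resident macrophages of the brain, use the pathway in their response to infection and injury.

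Promoter sequences of these genes were searched for the motif that NF-kB itself binds. In the RefSeq promoter table of build GRCm38.p6, 7 of the 10 genes had an entry, with 10 start sites among them. The window of each start, 250 bases before it to 50 after, was searched on both strands for the consensus kappaB motif bound by NF-kB dimers, and matches that overlapped were joined. The motif was present at 1 or more starts of 6 genes, Rel, Nfkb2, Nfkbia, Nfkbie, Tnfaip3 and Tnip1, and no match was found in the Rela window. By window, 8 of the 10 held a match, against 8.46% of all 32851 promoter windows in the table, and by gene 6 of the 7, against 9.55% of all genes in it. Windows of Nfkb2 overlapped, and a match in their shared part was counted in more than 1 window. The interferon-response core GAAANNGAAA, searched in the same way, was in 0 of these 10 windows and in 3.44% of all windows. At so low a share, its absence from 10 windows says little. The 150 bases before the start follow 5′ to 3′ for genes on which the results turn, Rela as the one without a match, with kappaB matches in capitals, and for Nfkb2 and Tnfaip3 at the most upstream of their listed starts. Their places are chr11:23770970-23771119 on the minus strand for Rel, chr19:5637391-5637540 on the plus strand for Rela, chr19:46304587-46304736 on the plus strand for Nfkb2, chr12:55492648-55492797 on the minus strand for Nfkbia, chr10:19015411-19015560 on the minus strand for Tnfaip3, and chr11:54962941-54963090 on the minus strand for Tnip1.
Rel: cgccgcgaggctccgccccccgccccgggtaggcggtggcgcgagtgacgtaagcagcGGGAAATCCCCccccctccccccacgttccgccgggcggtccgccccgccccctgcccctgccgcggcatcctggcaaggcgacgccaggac
Rela: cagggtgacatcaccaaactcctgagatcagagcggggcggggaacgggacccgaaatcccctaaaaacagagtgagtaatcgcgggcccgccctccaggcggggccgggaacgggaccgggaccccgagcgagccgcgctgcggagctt
Nfkb2: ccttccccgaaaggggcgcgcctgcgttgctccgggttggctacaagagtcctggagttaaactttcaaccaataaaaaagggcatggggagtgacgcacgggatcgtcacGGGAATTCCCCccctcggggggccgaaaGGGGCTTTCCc
Nfkbia: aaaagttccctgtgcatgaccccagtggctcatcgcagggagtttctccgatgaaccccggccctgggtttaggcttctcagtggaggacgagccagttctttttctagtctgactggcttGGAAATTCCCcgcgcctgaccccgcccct
Tnfaip3: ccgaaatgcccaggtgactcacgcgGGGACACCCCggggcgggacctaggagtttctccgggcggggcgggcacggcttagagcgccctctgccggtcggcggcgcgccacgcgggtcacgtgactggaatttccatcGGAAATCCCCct
Tnip1: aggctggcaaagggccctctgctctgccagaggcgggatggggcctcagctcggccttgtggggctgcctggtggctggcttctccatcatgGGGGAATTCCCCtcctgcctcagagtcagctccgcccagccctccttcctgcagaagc
A match describes these letters and is not evidence of binding, and the windows say nothing of distal enhancers.

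Library totals lay between 33710545 and 33781938 counts with poly(I:C) and between 34608620 and 34899835 counts with saline, so the members, each with at least 671 counts in every library, were not limited by depth. Microglial transcripts were abundant in every library, with P2ry12, a purinergic receptor of microglia, between 1883 and 2995 CPM (counts scaled by TMM to a common library total). The summed level of 11 microglia markers was 30535, 42503 and 39173 CPM in poly(I:C) replicates 1 to 3, against 38500, 42937 and 44743 CPM in saline replicates 1 to 3. A pair of libraries stood apart. The sum of 10 choroid plexus markers was 19428 CPM in poly(I:C) replicate 1, against 4010 to 9343 CPM in the other 5 libraries. The sum of 12 neutrophil markers was 21498 CPM in saline replicate 1, against 498 to 2528 CPM in the other 5, and all values with poly(I:C) lay below all with saline, the nearest being 2351 CPM with poly(I:C) and 2436 CPM with saline. Of 7 further lists, for monocytes, border macrophages, lymphocytes, endothelial cells, astrocytes, oligodendrocytes and neurons, 1 gene was called, Ms4a4c of the monocyte list, which rose 7.06-fold (adjusted p = 0.0460), and the summed neuron markers reached at most 2.67 CPM. None of the markers with a row in these lists was at 0 in all libraries. Reads over Fmr1 numbered 1484 to 2205 with poly(I:C) and 1243 to 1375 with saline, and without a wild-type group they do not check the genotype. The labels do not say whether replicates were separate animals, so the p-values reflect variation between libraries that may be only technical.

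None of the 10 genes passed the test, and their fitted differences lay between 1.35-fold lower (Rela) and 1.38-fold higher (Nfkbiz). In simulated data 6% of 50 genes changed 1.5-fold were recovered, and 28% of 50 changed 2-fold. Whether these shares hold at the levels and spread of the 10 members was not tested. The absence of calls does not show that the members were unchanged. The quasi-likelihood test of edgeR, with p adjusted by Benjamini-Hochberg over all 14727 tested genes, called 0 members higher and 0 lower with poly(I:C), where 0.883% of all genes were called higher and 0.0747% lower, 0.957% in all. At an unadjusted p under 0.05 there were 7 members, against 21.3% of all genes. The CPM values of the 3 poly(I:C) and 3 saline libraries did not overlap in 7 of the 10 members, against 28.4% of all tested genes. Of these, Rel stood above saline and the other 6, Nfkb1, Nfkb2, Rela, Relb, Nfkbie and Tnip1, stood below it. The median log2 fold change of the members was −0.29, against 0.0098 over all tested genes. Other tools called more of the table and more of the members. DESeq2 called 3 members lower (Rela, Nfkbie and Tnip1), with 3.84% of all genes called lower and 7.76% in either direction, and limma-voom with quality weights called Rel higher and the 6 others lower, with 8.61% of all genes called higher, 10.9% lower and 19.5% in either direction.

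**Figure D1:**
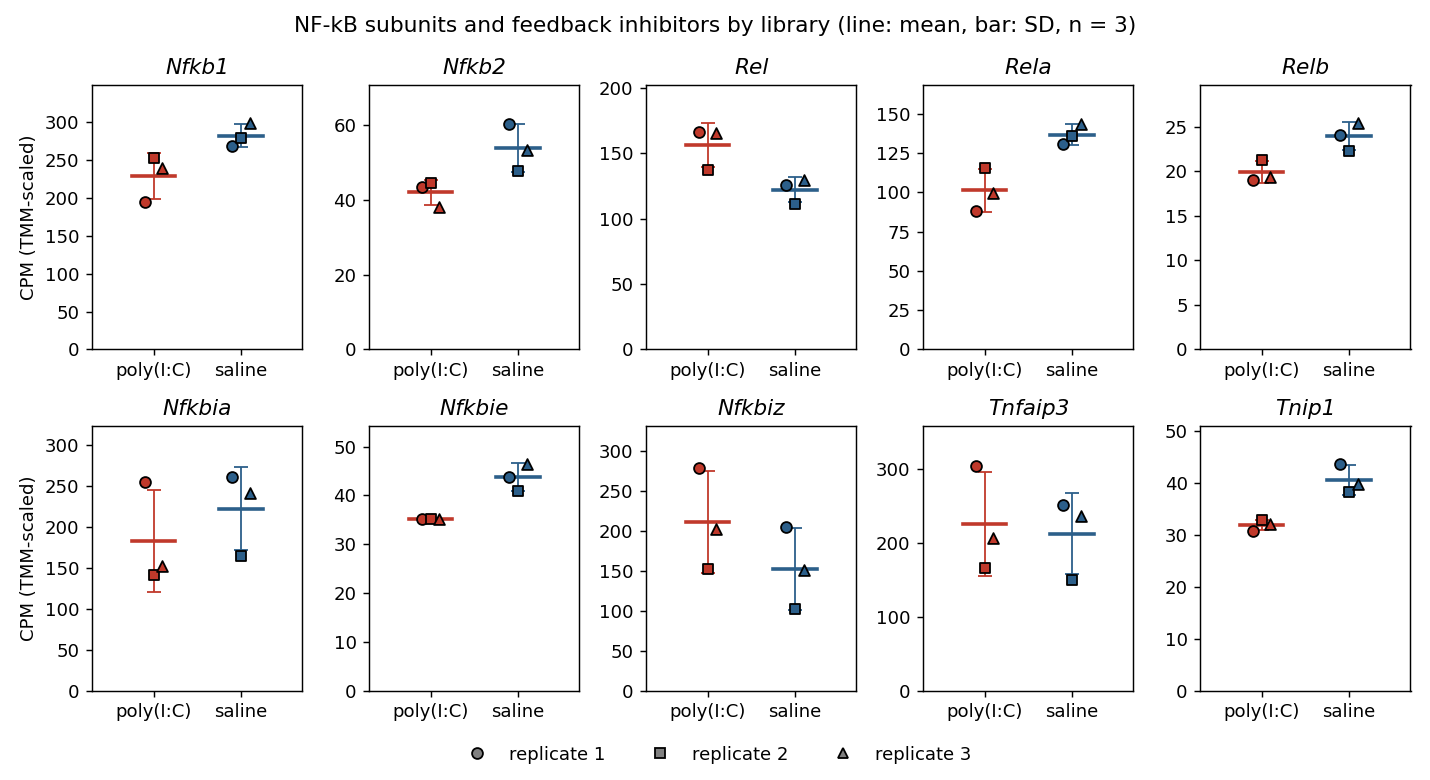
CPM scaled by TMM (y axis, from 0) of each of the 10 genes in the 3 poly(I:C) and the 3 saline libraries, 1 point per library with its replicate number as marker shape, a line at the mean and a bar of 1 SD. Rel lies higher in every poly(I:C) library than in any saline library, Nfkb1, Nfkb2, Rela, Relb, Nfkbie and Tnip1 lie lower, and Nfkbia, Nfkbiz and Tnfaip3 overlap.

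Among the subunits, Rela, which encodes the p65 subunit of the classical NF-kB dimer and its main activating partner, had the most negative difference of the 10 genes. It stood at 88.2, 116 and 99.9 CPM with poly(I:C), against 131, 136 and 144 CPM with saline. All 3 poly(I:C) libraries were below every saline library, and the lowest was the one rich in choroid plexus transcripts. The means were 101 ± 13.7 CPM with poly(I:C) and 137 ± 6.53 CPM with saline (SD, n = 3 each), a log2 fold change of −0.43 (SE 0.11, 95% interval −0.70 to −0.17, adjusted p = 0.140). Without poly(I:C) replicate 1 it was −0.32, and without both that library and saline replicate 1 it was −0.35 (adjusted p = 0.114). DESeq2 gave an adjusted p of 0.0280 and limma-voom 0.0106.

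Nfkb1, whose product is processed to the p50 subunit that pairs with the Rela protein, was at 194, 253 and 240 CPM with poly(I:C), against 269, 279 and 298 CPM with saline. The groups did not overlap, and poly(I:C) replicate 1 was again the lowest. The log2 fold change of −0.30 (SE 0.12, adjusted p = 0.211) was −0.17 without poly(I:C) replicate 1. Within a library, read counts of Nfkb1 were 2.20, 2.19 and 2.40 times those of Rela with poly(I:C), against 2.06, 2.05 and 2.08 times with saline.

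Rel, which encodes c-Rel, the subunit prominent in lymphoid and myeloid cells and a driver of Il12b in macrophages, went the other way from its relatives. It was at 166, 137 and 165 CPM with poly(I:C), against 125, 111 and 129 CPM with saline. Every poly(I:C) library was above every saline library. The means of 156 ± 16.5 CPM with poly(I:C) and 122 ± 9.68 CPM with saline (SD, n = 3 each) gave a log2 fold change of 0.36 (SE 0.11, 95% interval 0.10 to 0.61, adjusted p = 0.169), and limma-voom with quality weights an adjusted p of 0.0205. Leaving out single libraries gave values between 0.29 and 0.44.

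A ratio of counts inside a library does not depend on how libraries are scaled to each other. Reads of Rel were 1.88, 1.19 and 1.65 times those of Rela with poly(I:C), against 0.959, 0.816 and 0.901 times with saline. Every poly(I:C) library lay above every saline library. The ratio also stood above saline in each poly(I:C) library for Rel over Relb, which was between 6.43 and 8.72 with poly(I:C) and between 4.99 and 5.20 with saline. Of the 45 pairs that the 10 genes form, 12 had ratios that did not overlap between the groups, close to the 26.6% among all pairs of tested genes. Rel took part in 6 of the 12, each time with 1 of the 6 genes that stood below saline. Rel itself stood above saline without overlap, so these 6 ratios could not overlap and add nothing to the levels. Of the 15 pairs among the 6 genes that stood below saline, 2 did not overlap.

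**Figure D2:**
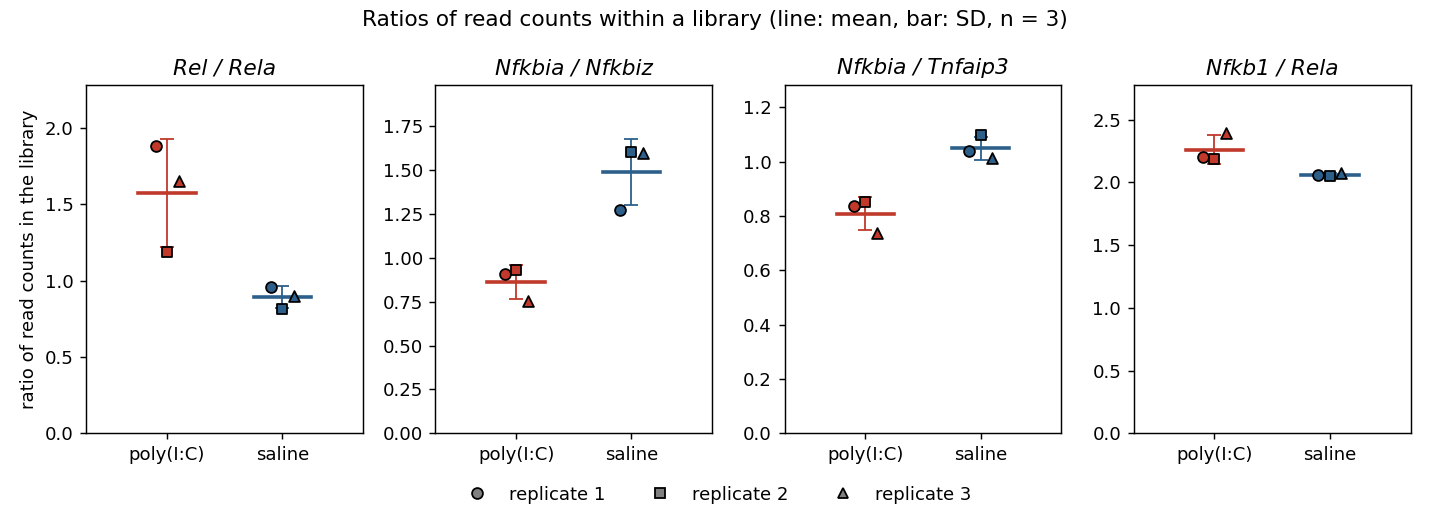
Ratio of read counts of 2 genes within a library (y axis, from 0) in the poly(I:C) and saline libraries, 1 point per library, a line at the mean and a bar of 1 SD. Rel over Rela lies at 1.19 to 1.88 with poly(I:C) and at 0.816 to 0.959 with saline, and Nfkbia over Nfkbiz and Nfkbia over Tnfaip3 lie lower with poly(I:C) in every library.

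Nfkb2 and Relb supply the dimer of the alternative pathway, which receptors such as the lymphotoxin beta receptor use and which develops slowly. Nfkb2 had 43.4, 44.4 and 38.1 CPM with poly(I:C), against 60.3, 47.6 and 53.3 CPM with saline. The nearest libraries of the 2 groups were at 44.4 CPM with poly(I:C) and 47.6 CPM with saline, so the gap was narrow, and the highest value was in saline replicate 1. The log2 fold change was −0.36 (SE 0.12, adjusted p = 0.185), and −0.27 without saline replicate 1. Exons of Nfkb2 share 531 bases with AC114539.1 and 299 bases with Psd, both on the opposite strand in GENCODE M21 (GRCm38). The library protocol does not mark strand, so reads there cannot be assigned to one gene. Relb was the member with the lowest read density, at 19.1, 21.3 and 19.4 CPM with poly(I:C), against 24.1, 22.3 and 25.4 CPM with saline. Here too the groups were separated by a narrow gap, and the log2 fold change was −0.26 (SE 0.11, adjusted p = 0.225).

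Of the IkB proteins, Nfkbie encodes IkB epsilon, a slower inhibitor that acts on dimers with c-Rel and p65. It was nearly the same in all poly(I:C) libraries, at 35.2, 35.1 and 35.1 CPM, against 43.8, 40.8 and 46.5 CPM with saline. The groups did not overlap, and the log2 fold change was −0.31 (SE 0.087, adjusted p = 0.155), with an adjusted p of 0.0433 in DESeq2 and 0.0219 in limma-voom. Tnip1, whose product binds ubiquitin and the Tnfaip3 protein to restrain NF-kB and cell death, had a like difference. It was at 30.8, 32.8 and 32.1 CPM with poly(I:C), against 43.6, 38.2 and 39.9 CPM with saline, again without overlap. The log2 fold change was −0.35 (SE 0.092, adjusted p = 0.148), with an adjusted p of 0.0348 in DESeq2 and 0.0215 in limma-voom.

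The 3 inhibitors best known as rapid NF-kB targets, Nfkbia, Nfkbiz and Tnfaip3, varied between libraries of 1 group over a wider range than the difference between the group means. Nfkbia, which encodes IkB alpha, the principal early feedback inhibitor, had 254, 142 and 152 CPM with poly(I:C), against 261, 164 and 241 CPM with saline. The groups overlapped, with replicate 1 the highest in each. The log2 fold change was −0.28 (SE 0.27, adjusted p = 0.543), and its 95% interval of −0.91 to 0.35 leaves room for differences of either sign. It was −0.57 when poly(I:C) replicate 1 was left out and −0.13 when replicate 2 of the same group was.

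Nfkbiz encodes IkB zeta, an atypical nuclear member that acts as a coactivator at secondary response genes such as Il6 and Lcn2. It had 279, 152 and 203 CPM with poly(I:C), against 205, 102 and 151 CPM with saline. The 2 ranges overlapped, with replicate 1 the highest and replicate 2 the lowest in each group. The log2 fold change was 0.47 (SE 0.30, 95% interval −0.24 to 1.18, adjusted p = 0.377), or 0.72 without saline replicate 1 and 0.24 without poly(I:C) replicate 1. Tnfaip3, which encodes the ubiquitin-editing enzyme A20, had 304, 167 and 207 CPM with poly(I:C), against 252, 150 and 237 CPM with saline. Its log2 fold change was 0.084 (SE 0.27, 95% interval −0.56 to 0.73, adjusted p = 0.872). It became negative when poly(I:C) replicate 1 was left out (−0.17), without saline replicate 2 (−0.12) and without both replicate 1 libraries (−0.028).

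The levels of these 3 genes overlapped between the groups, while the ratios of their counts within a library did not, as in 26.6% of all pairs of tested genes. Reads of Nfkbia were 0.909, 0.932 and 0.753 times those of Nfkbiz with poly(I:C), against 1.27, 1.61 and 1.60 times with saline. Nfkbia over Tnfaip3 was 0.836, 0.850 and 0.738 with poly(I:C), against 1.04, 1.10 and 1.02 with saline. Nfkbiz over Tnfaip3 was 0.919, 0.912 and 0.980 with poly(I:C), against 0.815, 0.683 and 0.635 with saline. Relative to Tnfaip3, then, Nfkbiz was higher and Nfkbia lower in every poly(I:C) library than in any saline library. These ratios were picked after the counts were seen, no test was run on them, and with the share among member pairs close to that of all pairs nothing particular to these genes is read from them.

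Immediate early and other handling genes, which cell isolation is known to induce, shared their 3 highest libraries with Nfkbia and Tnfaip3 but not with Nfkbiz. The list of 21 also held the heat-shock genes Hspa1a, Hspa1b and Dnajb1, of which Hspa1b alone was at 3185 CPM in saline replicate 3. The summed level of the 21 genes was 10501, 8402 and 8605 CPM with poly(I:C), against 11588, 8212 and 12063 CPM with saline. The 3 libraries with the highest sums were the 3 with the highest Nfkbia and Tnfaip3. Nfkbiz was at 151 CPM in saline replicate 3, where the sum was highest, and at 203 CPM in poly(I:C) replicate 3, where the sum was lower. Replicate 2 had the lowest sum in each group, as it had the lowest Nfkbia, Nfkbiz and Tnfaip3. Of these 21 genes 0 were called in edgeR and their median log2 fold change was −0.19. The 4 with the smallest p had negative differences, Jund at −0.60 (adjusted p = 0.111), Klf2 at −0.53 (0.161), Ier5 at −0.30 (0.197) and Jun at −0.29 (0.266), of which Jun overlapped between the groups. Jund and Jun encode subunits of the transcription factor AP-1 and Klf2 a factor that restrains inflammatory genes in myeloid cells. The part of handling in the levels of the 3 inhibitors was not tested.

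**Figure D3:**
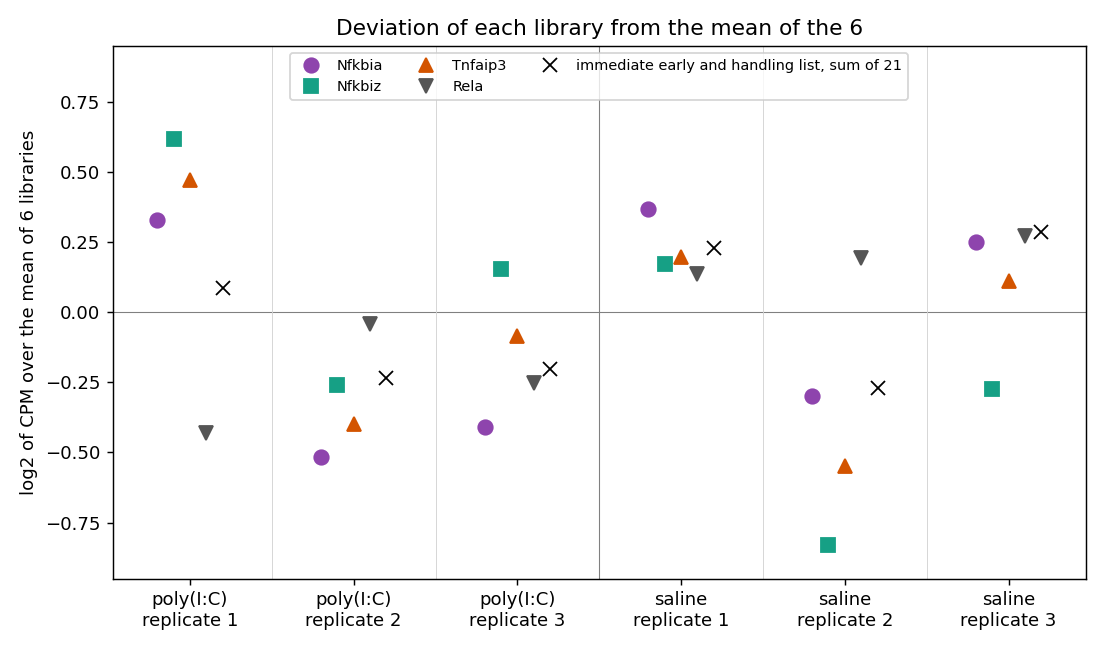
Deviation of each library from the mean of the 6 libraries, as log2 of CPM over that mean (y axis), for Nfkbia, Nfkbiz, Tnfaip3, Rela and the sum of 21 immediate early and handling genes. Nfkbia and the sum are above their means in the same 3 libraries, poly(I:C) replicate 1 and saline replicates 1 and 3, whereas Rela is lower in every poly(I:C) library than in any saline library.

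The summed neutrophil markers had the same order of groups as the 6 genes that stood below saline. They were lower in every poly(I:C) library than in any saline library. Within the saline group the 6 genes did not follow this sum together. It was highest in replicate 1, where Rela and Nfkb1 were lowest, Nfkb2 and Tnip1 highest, and Relb and Nfkbie in between. Singly, 5 of the 12 neutrophil markers lay below saline without overlap, against 14.3% of all tested genes, and 7 overlapped. Their median log2 fold change was −2.82 with 0 of them called, and each of the 12 was highest in saline replicate 1. The part of these cells was not tested. Without saline replicate 1, the library rich in neutrophil transcripts, the same 6 genes were below saline in every remaining library, and Rel and Nfkbiz above it, where 43.5% of all genes did not overlap. Without poly(I:C) replicate 1, the library rich in choroid plexus transcripts, the 6 genes and Nfkbia were below saline and Rel above it, where 35.9% of all genes did not overlap. Without both replicate 1 libraries 9 of the 10 genes did not overlap, against 52.9% of all genes, Nfkbia joining those below, and no member was called in edgeR. When libraries were scaled to the summed microglia markers, an alternative chosen after seeing those sums, the median of all genes moved to 0.20. Rela was then at −0.26 and Nfkb1 at −0.13, which is −0.46 and −0.33 relative to that median, and these 2 did not overlap between the groups. The share of all genes without overlap under this scaling was not taken, so nothing particular to these 2 is read from it. Rel was at 0.56, or 0.36 relative to that median, but it overlapped under this scaling. So did Nfkb2, Relb, Nfkbie and Tnip1, whose log2 fold changes then lay between −0.17 and −0.078 before subtracting the median. In these bulk libraries fewer cells of a type and less RNA per cell cannot be told apart.

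**Figure D4:**
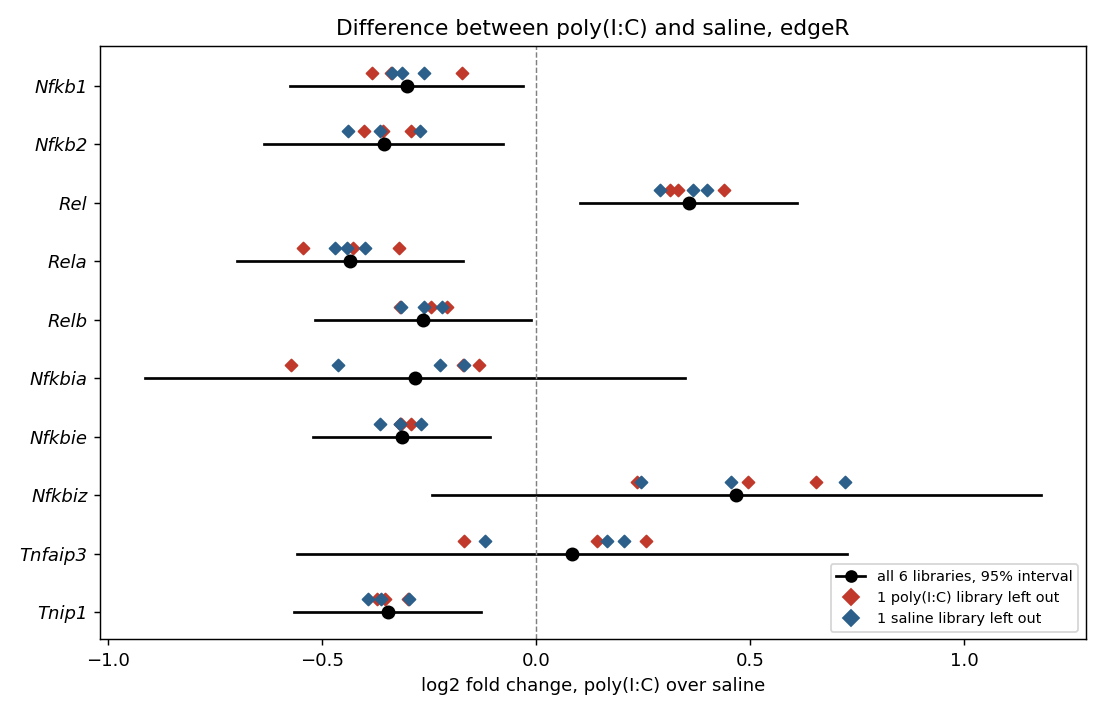
Log2 fold change of poly(I:C) over saline (x axis) for each gene, with the 95% interval from edgeR as a black bar and the values with 1 library left out as diamonds, in red for a poly(I:C) and in blue for a saline library. Rela at −0.43 and Rel at 0.36 keep their sign with each library left out, and Tnfaip3, at 0.084, changes sign.

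Levels of different genes were compared per kilobase of exon, with exon lengths from coding transcripts in GENCODE M21 (GRCm38), which may differ from the annotation used for counting. Nfkbia had the highest density in both groups, at 116 ± 39.3 CPM per kilobase with poly(I:C) and 141 ± 32.3 with saline (SD, n = 3 each). Nfkb1 came next, at 55.5 ± 7.41 with poly(I:C) and 68.4 ± 3.62 with saline. With poly(I:C) Nfkbiz (51.0 ± 15.5), Tnfaip3 (49.1 ± 15.4) and Rela (37.3 ± 5.04) followed, all with overlapping spreads. Those of Nfkbiz and Tnfaip3 reached the level of Nfkb1. With saline the order was Rela (50.4 ± 2.41), Tnfaip3 (46.3 ± 12) and Nfkbiz (36.9 ± 12.4), again with overlapping spreads. The other 5 were lower, between 9.01 for Relb and 20.9 for Rel with poly(I:C), and between 10.8 for Relb and 17.9 for Nfkbie with saline. Rel stood above Nfkbie in every poly(I:C) library, and below it in every saline library. By this measure transcripts of the classical subunits Nfkb1 and Rela were denser than those of the alternative pair Nfkb2 and Relb in all 6 libraries.

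In the lists of other pathway genes, the calls were among sensors and targets. Of 22 sensors and adaptors upstream of NF-kB, 3 rose and 0 fell, all of them receptors of double-stranded RNA, with a median log2 fold change over the list of −0.088. Rigi, a cytosolic sensor of viral RNA, rose to 172 ± 27.3 CPM with poly(I:C), against 52.6 ± 6.03 CPM with saline, a 3.27-fold difference (adjusted p = 0.0029). Ifih1, the sensor of long double-stranded RNA, rose 3.92-fold (adjusted p = 0.00995), to 90.0 ± 26.2 CPM with poly(I:C), against 22.9 ± 2.49 CPM with saline. Tlr3, the endosomal receptor of double-stranded RNA, rose 2.00-fold (adjusted p = 0.00732), to 179 ± 19.9 CPM with poly(I:C), against 89.2 ± 5.23 CPM with saline. The calls of Tlr3 and Ifih1 were lost without poly(I:C) replicate 3 (adjusted p = 0.0582 and 0.0611) or saline replicate 2 (0.0531 and 0.0541), and that of Ifih1 also without saline replicate 3 (0.0781). Under the microglia scaling all 3 missed, although their log2 fold changes were no smaller, at 1.92 for Rigi (SE 0.27, adjusted p = 0.0554), 1.22 for Tlr3 (SE 0.21, adjusted p = 0.101) and 2.21 for Ifih1 (SE 0.35, adjusted p = 0.0774). The next genes of that list by p were the costimulatory receptor Cd40 at a log2 fold change of 1.47 (adjusted p = 0.142), the kinase Irak4 at −0.31 (0.166), the TNF receptor Tnfrsf1a at −0.33 (0.185) and the lymphotoxin beta receptor Ltbr at −0.30 (0.186).

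The kinases and ubiquitin enzymes that activate NF-kB had small differences of both signs. In the list of 14 genes of the IkB kinase complex and its upstream kinases, 0 were called and the median log2 fold change was 0.12. Tbk1, a kinase that activates interferon regulatory factors, was at 145 ± 11.1 CPM with poly(I:C) and 111 ± 4.40 CPM with saline (log2 0.37, adjusted p = 0.119). Its adaptor Azi2 had a log2 fold change of 0.51 (0.145), the catalytic IKK subunit Chuk 0.30 (0.195) and the kinase Map3k8 0.48 (0.198). Among 13 genes of the linear and K63 ubiquitin machinery 0 were called, with a median of −0.020. The ligase Rnf31, which builds linear chains, was at 0.37 (adjusted p = 0.156) and Birc2 at 0.28 (0.163), while Spata2, a partner of the deubiquitinase Cyld, was at −0.31 (0.169) and Otulin, which removes linear chains, at −0.33 (0.206). Among 18 other IkB family genes and negative regulators 0 were called, with a median of −0.14. Pdlim2 was at −0.56 (0.179), Tnip2, a relative of Tnip1, at −0.32 (0.202), Tollip at −0.21 (0.220) and Nlrx1 at −0.44 (0.255).

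Target genes of NF-kB showed 1 call. The acute-phase gene Saa3 rose to 20.6 ± 5.22 CPM with poly(I:C), against 1.01 ± 0.75 CPM with saline (adjusted p = 0.0430), the only gene called of 21 tested in the list of survival, adhesion and enzyme targets, whose median was 0.044. That call was lost without any 1 of the poly(I:C) libraries (adjusted p between 0.0750 and 0.164), without saline replicate 3 (0.207) and under the microglia scaling (0.0893). Others in the list had Irf1, an interferon regulatory factor, at 0.52 (adjusted p = 0.121), the enzyme Gch1 at 0.63 (0.169), Mmp9 at −2.48 (0.181) and Tnfaip2 at −1.13 (0.220). Mmp9, a protease stored in neutrophil granules, was at 493 CPM in saline replicate 1, the library rich in neutrophil transcripts. Of 15 cytokine and chemokine targets 0 were called, although their median was 0.78. The chemokine Ccl5 was at 16.8 ± 3.38 CPM with poly(I:C) and 4.05 ± 1.82 CPM with saline, a log2 fold change of 2.05 that missed the threshold (adjusted p = 0.0552). Cxcl10, Il12b and Il1a had log2 fold changes of 1.54, 2.10 and 0.78 (adjusted p = 0.113, 0.152 and 0.154). Il12b, the target named with c-Rel above, was at 1.54 ± 0.29 CPM with poly(I:C) and 0.36 ± 0.24 CPM with saline. Its groups did not overlap, as in 28.4% of all tested genes, and its counts were low, between 5 and 21 with saline. A link of Il12b to Rel was not tested. Nos2 did not pass the filter on low counts. Many of these genes also respond to interferon, so the lists do not read NF-kB alone.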

How the data were processed

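Gene expression was measured by RNA-seq of total RNA from cerebellar cells enriched with CD11b beads. Per the labels' protocols, cDNA was made with a SMARTer kit and tagged with Nextera XT, which does not mark strand. No molecular identifiers are mentioned, so values count amplified reads. The authors deposited raw read counts per gene symbol, 1 column per library, with no scaling or pooling. The submitters' processing notes name fastp, HISAT2 and HTSeq with build GRCm39, without versions, annotation or strand setting.

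From these counts, genes were kept by filterByExpr (14727 of 23491), scaled by TMM and tested with the quasi-likelihood F test of edgeR 4.0.16 (R 4.3.3) over all 6 libraries with no covariate, with Benjamini-Hochberg adjustment and a threshold of 0.05. SE was taken from the log2 fold change and its F statistic, and 95% intervals use the moderated degrees of freedom. Replicates differed by more than counting noise (chi-square per gene 21.2 to 113), and none was treated as a duplicate. The alternatives were RLE and upper-quartile scaling, no filter, a filter of 5 CPM in 3 libraries, DESeq2 1.42.0, limma-voom with quality weights (limma 3.58.1), a replicate block, each library left out, and both replicate 1 libraries left out. Scaling to microglia markers was added after seeing the data. The scripts were tested on simulated data.

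Genes, lists and tests were chosen with earlier results of these data known. Named genes were the 10 members and, of each pathway list, every called gene and up to 4 more with the smallest p. Genes outside this rule (P2ry12, Ms4a4c, Fmr1, AC114539.1, Psd and Nos2) were named after their values were seen. The microglia marker Fcrls, the lymphocyte marker Trac and the neuron marker Gabra6 were not analysed here. Exon lengths and overlaps came from GENCODE M21 and promoter sequences from RefSeq, both on GRCm38, and were matched by symbol.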

Additional observations from a re-analysis of the deposited data

How the results depend on the processing

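In edgeR 0 members were called under every scaling, filter and left-out library tried, and under the replicate block. DESeq2 called 3 lower and limma-voom with quality weights 1 higher and 6 lower. Of the 10 members, 9 kept their direction under all 15 alternatives, and Tnfaip3, whose values with each library left out ranged between −0.17 and 0.26, turned negative without poly(I:C) replicate 1 (−0.17), without saline replicate 2 (−0.12) and without both replicate 1 libraries (−0.028). The cause was not tested. Over all genes, 130 higher and 11 lower calls became 577 and 566 in DESeq2, 1268 and 1608 in limma-voom, 355 and 214 without both replicate 1 libraries, and 46 and 1 under microglia scaling. With each library left out the calls ranged between 51 and 167 higher and between 0 and 20 lower (in edgeR 0 with poly(I:C) replicate 3 or saline replicate 3 left out, with 1831 and 1913 genes at an unadjusted p under 0.05). Without the filter 18 genes were lower.

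With the replicate number as a block 171 genes were higher and 89 lower, with 0 members called. Nfkbiz came nearest, at a log2 fold change of 0.48 (SE 0.070, edgeR adjusted p = 0.0510). Its SE without the block was 0.30 (adjusted p = 0.377). Same-numbered libraries deviated together with correlations of 0.11, −0.12 and 0.19, and poly(I:C) replicates 1 and 2 did not correlate best with their own number, so the numbers were not taken to pair the samples.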
